A study of Mus musculus with 2 samples.

Results

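The genes described here are 8 genes of bone marrow sinusoids that were lower in the endothelial cells (ECs) of mice in which Dach1 had been switched on: Gda, Serpina3f, C5ar1, Ubd, Il13ra2, Rgs4, Adgrg6 and Gpm6a. They are 8 of the 28380 genes counted, and all 8 were found in both libraries. They were chosen by name because earlier results of these libraries had shown them lower in Dach1OE ECs, so their ratio between the libraries is a description, with no test. Single-cell RNA sequencing had been run on non-haematopoietic cells of femur and tibia at postnatal day 30 from C57BL/6 mice of both sexes, in 1 library per group. The Control mice had the genotype Dach1OE +/f, which carries the Dach1 transgene without Cre, and the Dach1OE mice the genotype Apj CreERT2 - Dach1OE +/f, in which a tamoxifen-inducible Cre driven by Aplnr (Apj), an endothelial receptor gene, releases the transgene. Mice of both groups received tamoxifen, and per the methods each library pooled 2 mice. Cells carrying CD45 or CD117 had been depleted.

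Sinusoids are the wide, thin-walled, slow-flowing vessels of bone marrow through which mature blood cells reach the circulation and their ECs are recognized by receptors such as Stab2 and Flt4. Dach1 encodes a DNA-binding transcription regulator known from arterial growth. The 8 genes have no pathway in common. C5ar1, Il13ra2 and Adgrg6 encode receptors, Rgs4 a brake on G proteins, Ubd a ubiquitin-like protein tag, Gda an enzyme of purine breakdown, Serpina3f a protease inhibitor and Gpm6a a membrane glycoprotein of the proteolipid family.

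The Control table held 28720 cells with 143986818 unique molecular identifiers (UMIs, each standing for 1 captured RNA molecule), and the Dach1OE table held 32028 cells with 166999989. After filters on genes and mitochondrial UMIs, 26466 and 29317 cells remained. Marker genes gated 9548 Control and 9835 Dach1OE cells as ECs, with medians of 2750 and 2727 UMIs. Dach1 itself stood at 5.39 CPM (counts per 1000000 UMIs of the same cells) in Control and 196 CPM in Dach1OE, where 37.6% of ECs carried at least 1 Dach1 UMI. Transgenic and endogenous Dach1 UMIs cannot be told apart in the tables. The libraries shared 1049 cell barcodes, and leaving those cells out changed none of the counts over all ECs, within the sinusoidal gate, between subtypes in Control and by Dach1 status that are given below. With 1 library per group nothing was tested, and every interval is a 95% exact interval of counting error. Where a gene is called lower, its CPM was at least 2-fold below that of the other group.

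The promoters of 4 of the genes are shown because they represent both patterns found below. Levels of Gpm6a and Il13ra2 were lower still in those Dach1OE cells in which Dach1 was seen, and levels of Rgs4 and Ubd were not. Each window runs from 250 bases before to 50 bases after a RefSeq transcription start on GRCm38.p6, 5′ to 3′ on the strand of the gene, with matches to the motifs named below in capitals. RefSeq gives Gpm6a another start as well, whose window (chr8:54779184-54779483) is not printed and held an ACAAT and no TATAAA.
Gpm6a, chr8:54954478-54954777, plus strand: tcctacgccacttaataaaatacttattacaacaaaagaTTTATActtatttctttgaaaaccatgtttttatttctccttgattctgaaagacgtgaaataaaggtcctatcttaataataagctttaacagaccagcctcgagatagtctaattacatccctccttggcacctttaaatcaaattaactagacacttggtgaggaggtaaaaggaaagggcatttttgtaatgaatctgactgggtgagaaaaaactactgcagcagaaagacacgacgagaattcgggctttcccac
Il13ra2, chrX:147429143-147429442, minus strand: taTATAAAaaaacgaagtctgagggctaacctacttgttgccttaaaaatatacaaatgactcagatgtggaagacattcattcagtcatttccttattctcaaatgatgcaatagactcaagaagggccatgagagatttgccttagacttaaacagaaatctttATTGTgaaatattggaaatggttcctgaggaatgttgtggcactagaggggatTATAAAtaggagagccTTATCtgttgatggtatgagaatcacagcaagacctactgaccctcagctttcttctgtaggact
Rgs4, chr1:169747593-169747892, minus strand: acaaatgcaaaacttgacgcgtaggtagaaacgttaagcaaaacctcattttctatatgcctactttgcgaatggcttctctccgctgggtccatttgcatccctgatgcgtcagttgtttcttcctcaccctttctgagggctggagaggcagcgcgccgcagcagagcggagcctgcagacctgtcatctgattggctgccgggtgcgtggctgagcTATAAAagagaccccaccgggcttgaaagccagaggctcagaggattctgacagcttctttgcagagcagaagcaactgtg
Ubd, chr17:37193642-37193941, plus strand: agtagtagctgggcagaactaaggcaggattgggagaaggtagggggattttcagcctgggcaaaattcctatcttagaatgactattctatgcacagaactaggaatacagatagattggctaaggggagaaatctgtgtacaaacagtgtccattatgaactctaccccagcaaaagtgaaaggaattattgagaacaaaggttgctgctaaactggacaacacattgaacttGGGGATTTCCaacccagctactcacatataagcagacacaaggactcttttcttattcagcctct
The search covered both strands for TATAAA, the core promoter box, for ACAAT, the core of SOX sites, for GATAA, bound by the family of that name, for TGCTGA, a part of MAF sites, and for the NF-kB consensus. TATAAA was present in 4 of 10 windows of the 8 genes, those of Gpm6a, Il13ra2, Rgs4 and Serpina3f, and in 13.6% of all 32851 windows. In both Il13ra2 and Rgs4 a TATAAA began at -31 from the start site. The match in Gpm6a lay at -211 and that in Serpina3f at -186, both on the opposite strand. The NF-kB consensus was found at -15 in Ubd and in no other of the 10 windows, against 8.46% of all windows. ACAAT occurred in 3 of the 10 windows and in 31.0% of all, GATAA in 2 and 25.4%, and TGCTGA in 3 and 19.5%. Of these, 2 overlapping windows of Serpina3f share 1 TGCTGA. A match is a description of these letters and not a site of binding.

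In ECs as a whole, 7 of the 8 genes were called lower in Dach1OE, against 3.58% of the 16222 genes with at least 20 UMIs over both libraries. Since that contrast chose the genes, nothing is read from the count. The same holds for every count between the libraries below that rests on a part of these ECs. The median log2 ratio of the 8 genes, Dach1OE over Control, was -1.96, and that of all genes 0.03. The largest difference was in Gpm6a, which ranked 16 of 16222 from the lowest ratio, and the smallest in Ubd, which ranked 744.

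C5ar1 encodes the receptor for the complement fragment C5a (chr7:16246743-16259540, minus strand of GRCm38 in GENCODE vM21, as are the positions that follow). Its level was 25.8 CPM (24.1 to 27.6) in Control ECs and 5.67 CPM (4.88 to 6.55) in Dach1OE ECs, a log2 ratio of -2.18 (-2.42 to -1.95). It was the least abundant of the 8, with a UMI in 7.04% of Control ECs.

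Il13ra2 encodes a receptor that binds interleukin 13 with high affinity and is known mainly as a decoy (chrX:147383476-147429192, minus strand). It stood at 311 CPM (305 to 317) in Control and 86.1 CPM (82.9 to 89.3) in Dach1OE, a log2 ratio of -1.85 (-1.91 to -1.79). Adgrg6, also called Gpr126, encodes an adhesion G protein-coupled receptor best known from nerve myelination (chr10:14402583-14545659, minus strand). It stood at 175 CPM (171 to 180) and 57.9 CPM (55.3 to 60.6), a log2 ratio of -1.60 (-1.68 to -1.52). A processed pseudogene and an antisense gene, Gm10335 and Gm46212, lie within Adgrg6, and since the tables do not say whether strand was used, their reads may add to its value.

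Rgs4 encodes a protein that speeds the shut-off of Gi and Gq signalling (chr1:169741477-169747642, minus strand). Its level was 318 CPM (312 to 324) in Control and 153 CPM (149 to 158) in Dach1OE, a log2 ratio of -1.05. Ubd, also called Fat10, encodes a tag that inflammatory cytokines induce and that sends proteins to the proteasome (chr17:37193892-37196095, plus strand). It was the most abundant of the 8, with 810 CPM (800 to 820) in Control and 439 CPM (431 to 446) in Dach1OE. Its log2 ratio of -0.88 (-0.91 to -0.86) was the only one of the 8 within 2-fold.

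Gda encodes guanine deaminase, which turns guanine into xanthine (chr19:21391307-21473445, minus strand). It stood at 181 CPM (176 to 185) in Control and 42.9 CPM (40.7 to 45.2) in Dach1OE, a log2 ratio of -2.08 (-2.16 to -1.99). Serpina3f belongs to the mouse cluster of genes related to alpha-1-antichymotrypsin (chr12:104214544-104221129, plus strand). Its level was 79.0 CPM (76.0 to 82.1) against 16.4 CPM (15.0 to 17.9), a log2 ratio of -2.27 (-2.41 to -2.13), and because the copies of this cluster are near-identical, reads may have been split among them. Gpm6a is best known from neurons, where its protein takes part in filopodium outgrowth (chr8:54954843-55060871, plus strand). It stood at 631 CPM (623 to 640) against 106 CPM (103 to 110), a log2 ratio of -2.57 (-2.62 to -2.52), and 5 genes that GENCODE classes as TEC overlap it on the same strand. The share of ECs with a Gpm6a UMI was 62.4% in Control and 15.6% in Dach1OE.

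Both libraries held cells with Xist UMIs and no Y-linked UMI and cells with the reverse, and as each library pooled 2 mice of both sexes, each kind is taken here to come from 1 mouse. The comparisons leave out the ECs with neither or both, which were 44.5% in Control and 46.2% in Dach1OE. In ECs with Xist, 3009 in Control and 3027 in Dach1OE, 6 of the 8 genes were called lower (2.89% of all genes). In ECs with Y-linked UMIs, 2288 and 2269, all 8 were called lower (3.29%). Gpm6a stood at 605 CPM and 696 CPM in the Xist and Y cells of Control and at 107 CPM and 108 CPM in those of Dach1OE. The levels of each gene in the Dach1OE cells of either kind lay below both levels in Control. The genes not called in Xist cells were Ubd, with 784 CPM against 531 CPM and a log2 ratio of -0.56 (-0.61 to -0.51), and Rgs4, with 330 CPM against 187 CPM and a ratio of -0.82 (-0.90 to -0.74). In Y cells the ratio of Ubd was -1.27 (-1.33 to -1.21) and that of Rgs4 -1.24 (-1.33 to -1.14). The Dach1OE cells of either kind differed by 0.50 for Ubd and 0.43 for Rgs4 on the log2 scale, Xist over Y, against -0.21 and 0.02 in Control.

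**Figure D1:**
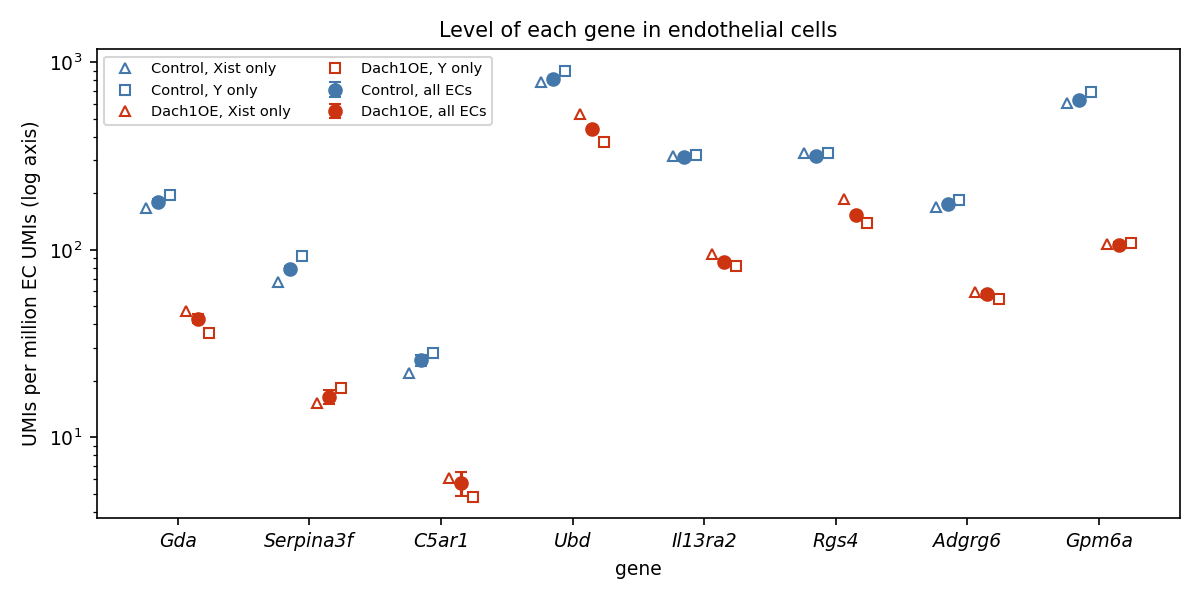
Level of each gene in ECs, in CPM on a log axis, in Control (blue) and Dach1OE (red). Filled circles are all ECs with 95% exact Poisson intervals, and open triangles and squares are ECs with Xist only or Y-linked UMIs only. For each of the 8 genes the Dach1OE symbols lie below the Control symbols, from 631 to 106 CPM for Gpm6a and from 810 to 439 CPM for Ubd.

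The label of sinusoidal genes was set beside subtypes of ECs gated by other markers, Stab2, Flt4, Gpr182 and Stab1 for sinusoids. None of these markers is among the 8. The 8 genes had been chosen with earlier results of these data known. The paper names Rgs4 and Adgrg6 (as Gpr126) as markers of sinusoidal ECs. The values thus describe the label and do not test it. In Control, 8 of 8 genes were at least 2-fold higher in the 6561 sinusoidal-gated ECs than in all other ECs, against 4.01% of 14506 genes. The log2 ratio ran from 1.24 (1.14 to 1.34) for Gda to 2.51 (2.41 to 2.61) for Rgs4. In Dach1OE, 7 of 8 were at least 2-fold higher in the 5301 sinusoidal-gated ECs (4.02%), and Gda, at 0.74 (0.58 to 0.90), was not. The sinusoidal gate took 68.7% of ECs in Control and 53.9% in Dach1OE.

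For 7 of the 8 genes the sinusoidal gate had the highest level of any subtype in Control, and the arterial gate had the lowest level of 6 of the 8. For Serpina3f, Il13ra2, Rgs4 and Adgrg6 the arterial interval overlapped that of the next lowest gate. Ubd stood at 1097 CPM in sinusoidal and 53.8 CPM in arterial ECs of Control, Gpm6a at 836 and 78.9 CPM, and Rgs4 at 438 and 30.2 CPM. Metaphyseal ECs lay between, with 136 CPM of Ubd, 168 CPM of Gpm6a and 137 CPM of Il13ra2. Proliferating ECs held 389 CPM of Ubd and 282 CPM of Gpm6a, with point values above every gate but the sinusoidal one and a small gate of 116 Control and 39 Dach1OE cells with Prox1, Mmrn1, Reln or Pdpn. That last gate was meant for lymphatic ECs, but its cells held 532 CPM of Stab2 in Control, so it is named here by its genes only. It came next after the sinusoidal gate for all 8 genes in Control.

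Gda had another order. Its highest level was in type R ECs, the post-arterial capillary gate, with 257 CPM in Control and 131 CPM in Dach1OE. In Control the interval of type R overlapped that of sinusoidal ECs, which stood at 224 CPM, and in Dach1OE it did not, since sinusoidal ECs stood at 53.8 CPM. The log2 ratio between the libraries was -0.98 (-1.39 to -0.58) in type R and -2.05 (-2.16 to -1.95) in sinusoidal ECs. The type R gate held only 235 and 173 cells, and part of its content differed between the libraries. Of its marker list, C1qtnf9 was alike, with 529 CPM in Control and 530 CPM in Dach1OE. Aqp7 stood at 12.5 and 151 CPM and Fmo2 at 594 and 305 CPM. Gja4, which is not in that list, stood at 5.57 and 222 CPM. A difference in the cells of this gate and one in the level per cell cannot be told apart. Gda was lowest in metaphyseal ECs, with 61.8 CPM in Control and 18.0 CPM in Dach1OE.

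**Figure D2:**
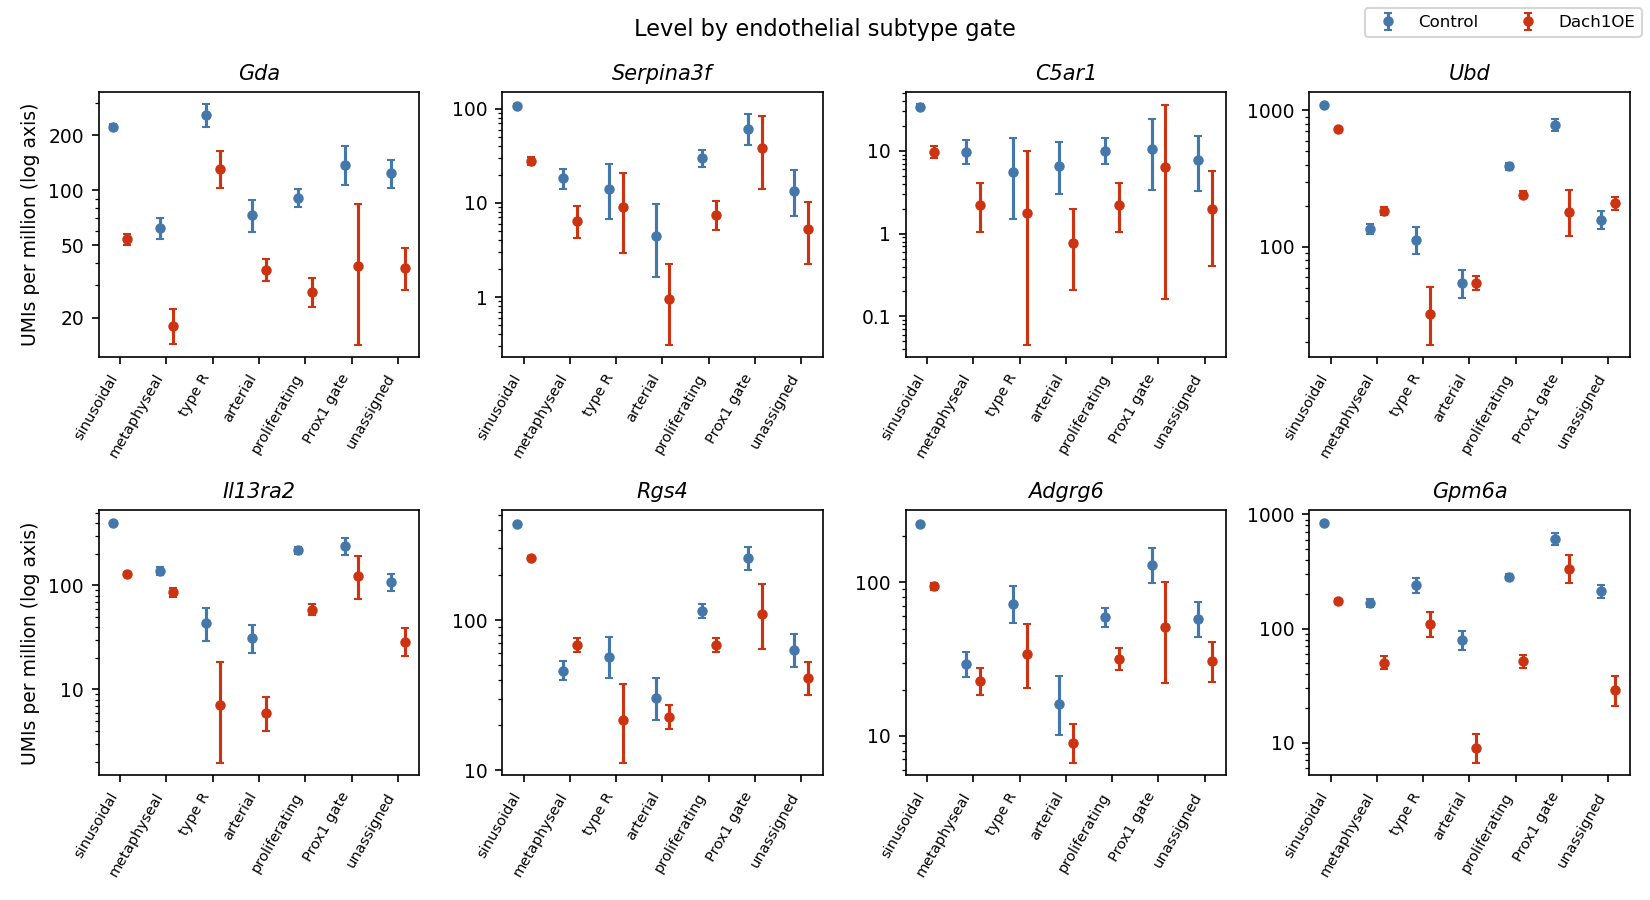
Level of each gene in each EC subtype gate, in CPM of that gate on log axes that differ between panels, in Control (blue) and Dach1OE (red) with 95% exact Poisson intervals. For 7 genes the sinusoidal gate of Control is highest, Gda is highest in the type R gate, and in the metaphyseal gate the Dach1OE points of Ubd and Rgs4 lie above those of Control.

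Within the sinusoidal gate, 6 of the 8 genes were called lower in Dach1OE, against 2.95% of 14624 genes. These cells are part of the ECs whose contrast chose the genes, so nothing is read from that count. The median log2 ratio of the 8 was -1.72 and that of all genes 0.04. Gpm6a stood at 836 CPM in Control and 174 CPM in Dach1OE, a ratio of -2.26 (-2.32 to -2.21), and Gda at 224 and 53.8 CPM. The ratios of Serpina3f, C5ar1, Il13ra2 and Adgrg6 were -1.95, -1.81, -1.63 and -1.34. Rgs4 at -0.75 (-0.81 to -0.70) and Ubd at -0.59 (-0.62 to -0.56) were within 2-fold. The gate gene Stab2 stood at 1086 and 794 CPM. Markers of other subtypes were read in this gate too. Of the metaphyseal list, Lamb1 stood at 16.1 CPM in Control and 60.1 CPM in Dach1OE, Piezo2 at 20.1 and 10.8 CPM and Ramp3 at 12.5 and 8.15 CPM. Of the arterial list, Gja4 stood at 1.06 and 8.59 CPM, Gja5 at 0.968 and 2.93 CPM and Hey1 at 1.75 and 3.92 CPM, each higher in Dach1OE. Bmx, on 14 and 9 UMIs, stood at 0.646 and 0.560 CPM. The part of these markers in the result was not tested. When the subtypes of Dach1OE were weighted by the shares of UMIs they took in Control, 6 of 8 were again called lower (3.26%), Ubd and Rgs4 again being the others with -0.57 and -0.72.

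The genes did not move alike in every subtype. In metaphyseal ECs, the type H capillaries near the growth plate, 4 of 8 were called lower (1.93%), led by C5ar1 with -2.15 (-3.32 to -1.11), Gda with -1.78 (-2.15 to -1.41) and Gpm6a with -1.74 (-1.96 to -1.52). The markers of this gate differed between the libraries, with 342 CPM of Piezo2 in Control and 204 CPM in Dach1OE, 312 and 183 CPM of Ramp3, and 309 and 440 CPM of Lamb1. Here too a difference in the cells taken and one in the level per cell cannot be told apart. In the same gate Ubd was higher in Dach1OE, 183 against 136 CPM with a log2 ratio of 0.43 (0.27 to 0.59), and so was Rgs4, 68.2 against 46.1 CPM with a ratio of 0.56 (0.29 to 0.84). In the type R gate, with its unlike content, 5 of 6 tested were called lower (3.53%), Gda being the other. Ubd stood there at 111 CPM in Control and 32.3 CPM in Dach1OE, and Rgs4 at 57.1 and 21.5 CPM. In arterial ECs 2 of 6 tested were called lower (3.68%), Gpm6a and Il13ra2. This gate held 393 cells in Control and 1494 in Dach1OE, with 105 and 25.6 CPM of Bmx and 922 and 1542 CPM of Gja4, so the same limit holds. There Gpm6a stood at 78.9 CPM in Control and 8.99 CPM in Dach1OE, a ratio of -3.13 (-3.66 to -2.63), and Il13ra2 at 31.0 and 5.93 CPM. Ubd in that gate stood at 53.8 CPM in Control and 54.1 CPM in Dach1OE, a ratio of 0.01 (-0.37 to 0.40). In proliferating ECs 5 of 8 were called lower (2.70%), from -1.73 for Gda to -2.44 for Gpm6a. In the gate with Prox1 4 of 7 tested were called lower (7.43%), namely Gda, Ubd, Rgs4 and Adgrg6. Ubd stood there at 778 CPM in Control and 180 CPM in Dach1OE. Gpm6a, Il13ra2 and Serpina3f were not called. Gpm6a stood at 610 and 334 CPM, the latter being its highest level in any gate of Dach1OE. In ECs that no gate took 4 of 7 were called lower (4.87%).

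The comparison within the Dach1OE library set ECs with at least 1 Dach1 UMI against ECs with none, so that both came from the same library. It was not itself used to choose the genes, although earlier results on Dach1 status in this library were known. The cells compared are, however, the Dach1OE ECs of the contrast that chose the genes. The counts by Dach1 status thus describe these cells, and no more is read from them. There were 3696 Dach1-positive ECs with a median of 3392.5 UMIs and 6139 Dach1-negative ECs with 2421, and a cell without a Dach1 UMI may still express Dach1. Of the 8 genes, 5 were called lower in Dach1-positive ECs, against 2.27% of 14441 genes, and none higher, against 0.81%. Within the sinusoidal gate 5 of 8 were called lower as well (2.31%). The genes fell into 3 kinds. Il13ra2, Gpm6a, Serpina3f, Gda and Adgrg6 were lower, C5ar1 was lower by less than 2-fold, and Ubd and Rgs4 were slightly higher.

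Il13ra2 stood at 133 CPM in Dach1-negative and 27.5 CPM in Dach1-positive ECs, a log2 ratio of -2.28 (-2.43 to -2.12), and Gpm6a at 163 and 36.3 CPM, a ratio of -2.16 (-2.30 to -2.03). Serpina3f had a ratio of -1.66 (-1.98 to -1.35), Gda of -1.59 (-1.78 to -1.40) and Adgrg6 of -1.19 (-1.34 to -1.04). C5ar1, with only 129 and 56 UMIs, had -0.90 (-1.38 to -0.43). Ubd stood at 409 CPM in Dach1-negative and 476 CPM in Dach1-positive ECs, a ratio of 0.22 (0.17 to 0.27), and Rgs4 at 139 and 171 CPM, a ratio of 0.30 (0.22 to 0.38). The promoters of Ubd and Rgs4 are shown above beside those of Il13ra2 and Gpm6a. Both genes thus lay below Control in Dach1OE ECs as a whole, but were not lower in Dach1-positive than in Dach1-negative ECs. Each of the 8 genes had the same sign in the Xist cells and in the Y cells of Dach1OE, although for Rgs4 in Y cells, at 0.14 (-0.02 to 0.30), the interval included 0. C5ar1, not called over all ECs of Dach1OE, had -1.71 (-2.71 to -0.81) and -1.05 (-2.06 to -0.10) in these parts of the cells, which made 6 of 8 in either (2.32% and 1.95%). In metaphyseal ECs of Dach1OE, 4 of 7 tested genes were called lower by Dach1 status (2.54%), and 1 was called higher (1.68%). That gene was Rgs4, with 38.6 CPM in Dach1-negative and 115 CPM in Dach1-positive cells.

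**Figure D3:**
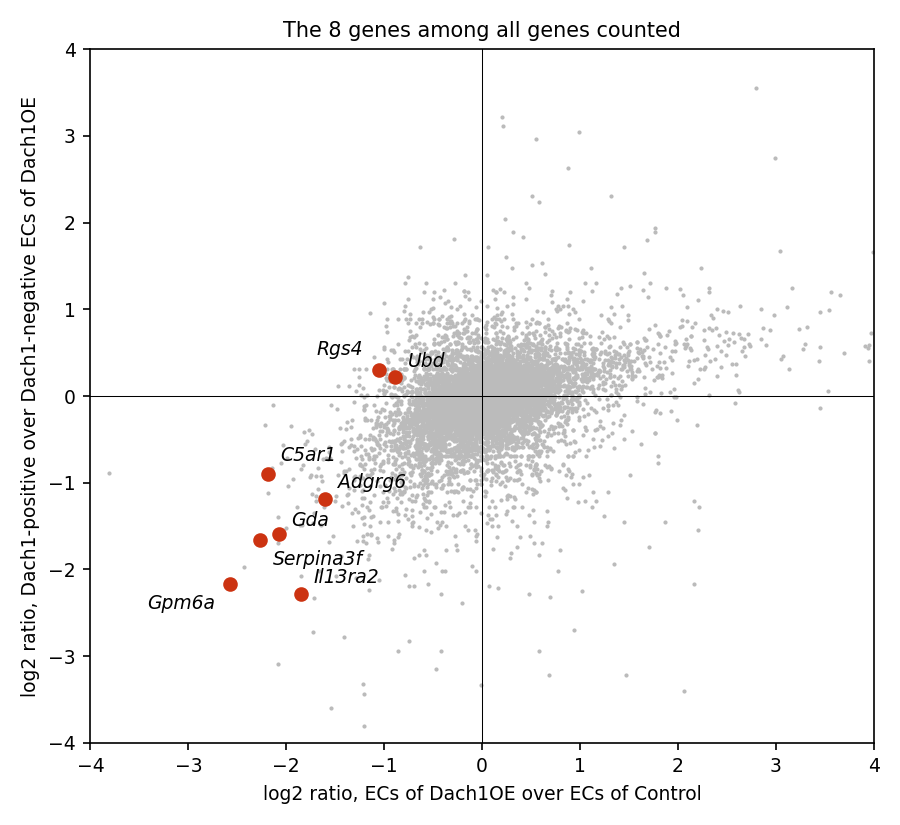
Log2 ratio of Dach1OE over Control in ECs (horizontal) and of Dach1-positive over Dach1-negative ECs within Dach1OE (vertical) for the 14441 genes tested in both (grey), with the 8 genes in red. All 8 lie left of 0, 6 lie below 0 on the vertical axis, and Ubd and Rgs4 lie above it at 0.22 and 0.30. The axes end at 4 on either side and leave out 21 genes.

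Among those 14441 genes, 248 were called lower in Dach1OE ECs and 328 lower in Dach1-positive ECs, and 86 were in both lists, which is 34.7% of the first and 26.2% of the second. Since the Dach1-positive cells are part of the Dach1OE ECs, these lists share cells, and no more is read from the overlap.

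Within the sinusoidal gate the levels of each gene can be set side by side in Control, in Dach1OE cells with no Dach1 UMI and in Dach1OE cells with Dach1. Gda stood at 224, 81.0 and 18.2 CPM, Il13ra2 at 394, 195 and 38.6 CPM, and Gpm6a at 836, 263 and 57.1 CPM. Serpina3f stood at 108, 39.1 and 13.1 CPM and Adgrg6 at 239, 125 and 54.3 CPM. For each of these 5, and for C5ar1 with 34.1, 11.6 and 7.21 CPM, the level of the Dach1-negative cells lay between the others. Against Control, 5 of 8 genes were called lower in Dach1-negative cells (2.79%) and 6 of 8 in Dach1-positive cells (5.21%). Dach1-positive cells were 14.6-fold lower in Gpm6a, 12.3-fold in Gda and 10.2-fold in Il13ra2.

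Ubd and Rgs4 did not follow that order. Ubd stood at 1097 CPM in Control, 682 CPM in Dach1-negative and 794 CPM in Dach1-positive cells, and Rgs4 at 438, 238 and 287 CPM. Both were thus lowest in the cells without a Dach1 UMI. In cells with 1, with 2 or 3 and with 4 or more Dach1 UMIs, Ubd stood at 721, 856 and 968 CPM and Rgs4 at 254, 313 and 377 CPM. Over the same steps Adgrg6 stood at 63.5, 45.2 and 38.9 CPM. The other 5 genes had their lowest point value at 2 or 3 Dach1 UMIs. For each of the 5, and for Ubd, Rgs4 and Adgrg6 too, the interval at 2 or 3 overlapped that at 4 or more. These steps are thus not separated beyond counting error. For Ubd and Rgs4 the intervals with none and with 1 Dach1 UMI overlapped as well. Il13ra2 stood at 51.5, 23.5 and 28.3 CPM and Gpm6a at 75.0, 34.2 and 51.3 CPM. Gda stood at 22.5, 12.5 and 17.7 CPM, and Serpina3f at 14.0, 11.02 and 17.7 CPM. C5ar1 stood at 9.86, 3.31 and 8.85 CPM, the last on 5 UMIs. The median UMIs per cell went over these steps from 2838 to 3989, and 121 cells had 4 or more Dach1 UMIs. The part of depth in these steps was not tested.

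**Figure D4:**
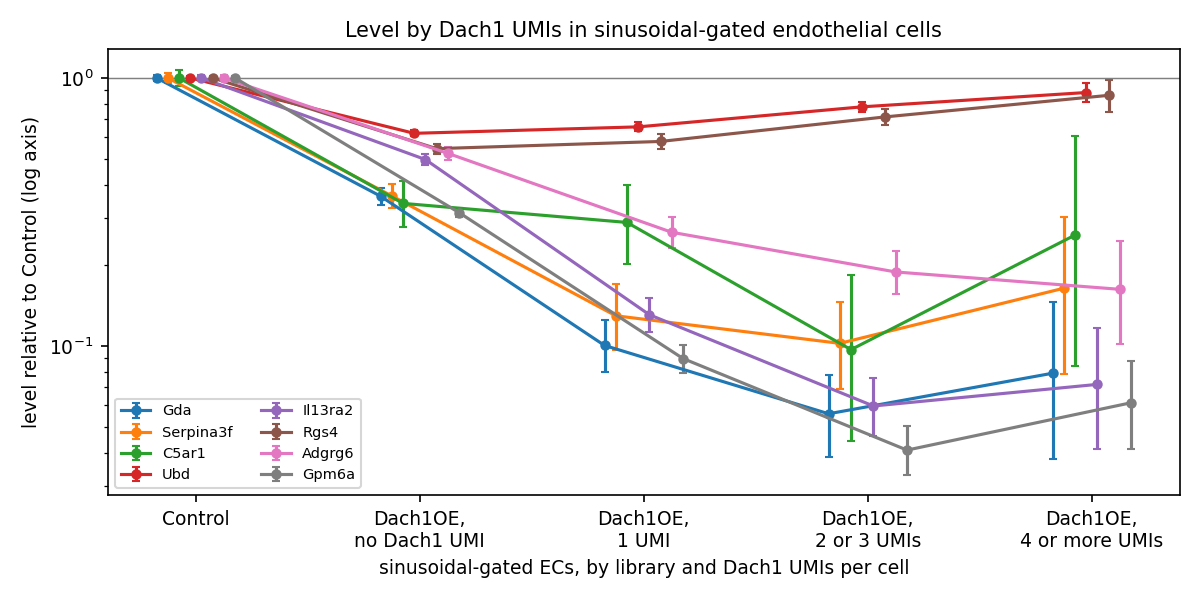
Level of each gene in sinusoidal-gated ECs relative to Control (log axis), in Control and in Dach1OE cells by the number of Dach1 UMIs in the cell, with 95% exact Poisson intervals. Gpm6a, Gda, Il13ra2, Serpina3f and Adgrg6 are lower in cells with 1 Dach1 UMI than in cells with none. The point values of Ubd and Rgs4 are lowest in cells with none, with intervals that overlap those at 1 UMI. They are at 968 and 377 CPM in cells with 4 or more.

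Scgb3a1, a secreted protein gene that was at 17.4 CPM in sinusoidal-gated ECs of Control and 662 CPM in those of Dach1OE, was used to divide the cells as well. Of sinusoidal-gated ECs of Dach1OE, 2395 had a Scgb3a1 UMI and 2906 had none. Dach1 UMIs were found in 51.4% of the former and 25.2% of the latter, and the median UMIs per cell were 2862 and 2378.5. The part of Dach1 and of depth in the values by Scgb3a1 was not tested. In sinusoidal-gated ECs of Dach1OE with a Scgb3a1 UMI, against those without, Ubd had a log2 ratio of 1.14 (1.08 to 1.19) and Rgs4 of 1.02. In the same comparison Il13ra2 had -2.14 (-2.31 to -1.98), Gpm6a -1.72 (-1.85 to -1.59), Gda -1.51 (-1.74 to -1.29), Serpina3f -1.09 (-1.39 to -0.80), C5ar1 -0.78 (-1.28 to -0.30) and Adgrg6 -0.76 (-0.91 to -0.61). Of the 8, 4 were called lower (3.34% of 12831 genes) and 2 higher (1.22%).

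Detection was also counted per cell. Each cell was thinned to 1000 UMIs so that depth was alike, which left out 275 Control and 373 Dach1OE ECs that were shallower. Of the ECs, 69.3% (68.3% to 70.2%) in Control and 39.5% (38.6% to 40.5%) in Dach1OE had a UMI of any of the 8 genes. Without thinning the shares were 81.1% and 53.8%. Chondrocyte-gated cells, which stand here for cells that are not endothelial, had 7.21% and 4.36% after thinning, with medians of 10683 and 10061 UMIs before it. Adgrg6, which was seen in 2.45% and 2.08% of them, was the gene most often found there. At least 3 of the 8 genes were seen in 37.3% of sinusoidal-gated ECs of Control, in 11.2% of those without Dach1 UMIs in Dach1OE and in 3.15% of those with them. In the last cells most detection was of Ubd, seen in 38.4% (36.3% to 40.6%), and of Rgs4, seen in 19.1% (17.4% to 20.9%). Gda was seen in 18.5% of sinusoidal-gated ECs of Control and in 1.45% (0.963% to 2.08%) of Dach1-positive ones, where chondrocyte-gated cells of Dach1OE had 0.169%.

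**Figure D5:**
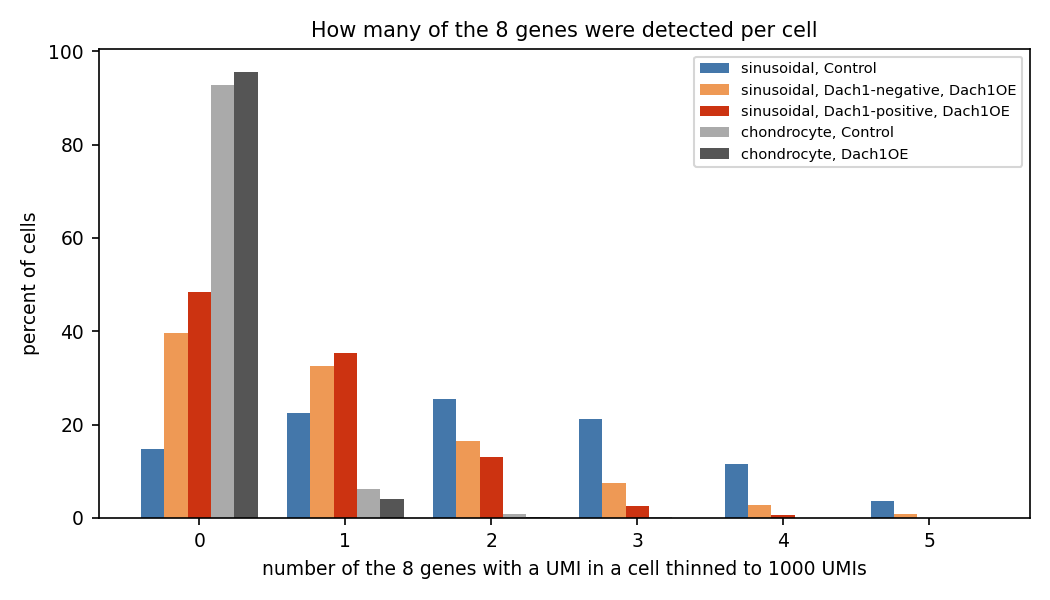
Percent of cells by how many of the 8 genes had a UMI after thinning to 1000 UMIs, in sinusoidal-gated ECs of Control (blue), of Dach1OE without (orange) and with (red) Dach1 UMIs, and in chondrocyte-gated cells (greys). Cells with 3 or more of the genes make up 37.3% of the blue, 11.2% of the orange and 3.15% of the red cells. Cells with 6 or 7 of the genes, at most 0.750% and 0.156% of a group, are not drawn.

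Outside ECs the levels of the 8 genes differed by gene and class. Ubd, Il13ra2 and Gpm6a stood in chondrocyte-, stromal-, haematopoietic- and mural-gated cells at 0.718% to 4.51% of the EC level of the same library, in Control and in Dach1OE alike. The part of free RNA in this level was not tested. Over these 4 classes, 16 of 30 gene and class pairs with at least 20 UMIs were called lower in Dach1OE, namely 3 of 7 in haematopoietic- (1.99% of all genes), 4 of 8 in stromal- (4.39%), 5 of 8 in chondrocyte- (2.55%) and 4 of 7 in mural-gated cells (2.09%). Il13ra2 and Gpm6a were called in each of the 4 classes, and Rgs4 in none.

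C5ar1 stood at 0.911 to 4.06 CPM in these classes of Control and at 0.413 to 1.93 CPM in those of Dach1OE. Rgs4, Adgrg6 and Gda had higher levels in some of them. Rgs4 was higher in mural-gated cells, the smooth muscle cells and pericytes of vessels, than in ECs, with 714 CPM in Control and 613 CPM in Dach1OE, a log2 ratio of -0.22 (-0.29 to -0.15). Adgrg6 stood in the same cells at 64.2 and 22.2 CPM, a ratio of -1.53 (-1.82 to -1.24), and in chondrocyte-gated cells at 26.7 and 19.0 CPM. Gda stood in haematopoietic-gated cells at 43.3 CPM in Control and 43.2 CPM in Dach1OE, a ratio of 0.00 (-0.14 to 0.14), beside the difference of -2.08 in ECs. In Dach1OE that was as high as its level in ECs.

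Markers of other classes were read in ECs beside these genes. The chondrocyte list summed to 377 CPM in Control ECs and 494 CPM in Dach1OE ECs, the haematopoietic list to 282 and 322 CPM and the stromal list to 259 and 231 CPM, with every gene of the 3 lists detected in both. In sinusoidal-gated ECs the chondrocyte list summed to 385 and 519 CPM. Their part in the differences in ECs was not tested. Since Rgs4 is a gene of mural cells, the 9 mural markers of the gate were read in ECs as well. Of them 9 were seen in Control ECs and 8 in Dach1OE ECs, with summed levels of 607 and 400 CPM, and Higd1b was at 0 in Dach1OE. Kcnj8 and Mylk made up most of that sum, and Kcnj8 stood at 288 CPM in Control and 71.9 CPM in Dach1OE. Kcnj8, Mylk, Tagln and Higd1b were lower in Dach1OE ECs than in Control ECs, and Rgs5, Acta2, Myh11, Cspg4 and Notch3 were higher, with 18.3 and 29.8 CPM of Rgs5. The part of these markers in the level of Rgs4 was not tested. In ECs with no UMI of the list Rgs4 stood at 173 CPM in Control and 111 CPM in Dach1OE, a log2 ratio of -0.63, which is within 2-fold. Kcnj8, itself lower in Dach1OE, is in the list that chose these cells, so their values do not measure the part of mural RNA. Of the cells kept, 1510 of 2724 in Control and 1905 of 4047 in Dach1OE were sinusoidal. In the sinusoidal cells kept Rgs4 stood at 327 CPM in Control and 219 CPM in Dach1OE, a log2 ratio of -0.58. Among those Dach1OE cells it was 192 CPM without and 257 CPM with Dach1 UMIs.

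Relatives and partners of the 8 genes were read by family or pathway. Over all genes tested in ECs, 3.58% were called lower and 3.58% higher. C5ar2, the other C5a receptor, stood at 83.5 CPM in Control and 55.4 CPM in Dach1OE ECs, a log2 ratio of -0.59 (-0.68 to -0.51). Of the 6 tested genes of its list 2 were called lower, C3 and C3ar1, both under 1 CPM. No gene was called in either direction among 6 tested of the interleukin 13 and 4 receptor list, where Il13ra1, the signalling receptor, had -0.18 (-0.28 to -0.07). None was called among 8 adhesion receptors of endothelium, 7 purine breakdown genes, 7 Ubd partners and immunoproteasome genes and 2 proteolipids. Their median log2 ratios were 0.00, -0.46, 0.13 and -0.21. Psmb8 and Psmb9, immunoproteasome subunits that cytokines induce along with Ubd, had 0.04 and 0.15.

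Others went the opposite way or the same way as their relative. Of the RGS proteins of the family of Rgs4, 6 were tested and 2 were called higher, Rgs16 and Rgs1. Rgs16 stood at 22.8 CPM in Dach1OE and 5.45 CPM in Control, a ratio of 2.06 (1.83 to 2.31). Rgs1 stood at only 1.41 and 0.647 CPM, with a ratio of 1.12 (0.35 to 1.94). Rgs2 had -0.71 (-0.77 to -0.65). Of the ligands of Adgrg6, Prnp was called higher at 1.27 (1.20 to 1.35), and the collagens Col4a1 and Col4a2 had 0.39 and 0.41. Among 4 tested copies of the Serpina3 cluster 1 was called lower, Serpina3g with 139 against 41.6 CPM and -1.74 (-1.83 to -1.65). Of 15 other sinusoidal genes, the 4 gate genes included, 7 were called lower in ECs (3.58% of all genes) with a median of -0.99, among them Il6st, Tfpi, Mrc1 and Vcam1, and 3 within the sinusoidal gate (2.95%) with a median of -0.64. By Dach1 status 1 of 14 tested was called lower (2.27%), with a median of -0.39. That gene was Lyve1, with 15.4 CPM in Dach1-negative and 1.10 CPM in Dach1-positive ECs. It was also 1 of the 7 called in ECs. In the sinusoidal gate Lyve1 stood at only 0.599 CPM in Control and 0.498 CPM in Dach1OE, and the paper takes it as a lymphatic marker.

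The genes whose pattern was most like that of the 8 were ranked by Pearson's r between their log2 level and the mean of the 8 over 14 points, the 7 subtype gates in each library. These points share libraries, and r describes them without a test. The first of 11499 genes was Chst2, a sulfotransferase, with r = 0.978, before Gm6213 with 0.970, the transcription factor gene Tcf7l1 with 0.967, the protease gene Ctsc with 0.958 and Dnase1l3, a secreted nuclease, with 0.955. Ly96, Irf8, Sema3a, Xbp1 and Serpina3g completed the first 10. By Dach1 status Dnase1l3 had a log2 ratio of -1.98 and Sema3a of -1.49, whereas Xbp1 and Ly96 had -0.31 and -0.33. Of the 8 genes themselves, Serpina3f had the highest r with that mean, at 0.970, and Gda the lowest, at 0.553. Each of the 8 is part of that mean, which raises its r. The points also hold the difference between the libraries for which the 8 were chosen.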

How the data were processed

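Bone cells were captured on the BD Rhapsody system. The deposited tables hold counts per cell and gene, made by the authors in the WTA pipeline of BD Rhapsody (1.11 per the file headers) on GRCm38 with GENCODE vM19, counting intronic reads. The methods name another pipeline version. Counts were UMIs after the pipeline's error correction (RSEC), and raw UMIs were an alternative. The methods' limits on cells were applied (500 to 6000 genes, mitochondrial share below 25%), and doublets were not removed. Classes were gated per cell by at least 3 UMIs from at least 2 markers of a list and a sum at least 2 times that of each other class. Proliferating and Prox1-gated ECs were set first, and other ECs went to the subtype list with the largest sum relative to its mean per EC, with at least 2 UMIs. UMIs were summed per library and gate and divided by the gate's total (CPM), with exact Poisson intervals, exact binomial intervals for ratios and Clopper-Pearson intervals for shares (95%). Intervals cover counting error only, and a count of 0 was set to 3 UMIs in calls. As each group had 1 library, nothing was tested. Genes named were the 8, the gate genes, Dach1, Scgb3a1, listed relatives and the 10 genes most like the 8 among genes with at least 200 UMIs. The 8 genes, the lists and the gates were chosen with earlier results of these data known. Promoters came from RefSeq on GRCm38.p6, where all 8 genes matched, and gene positions from GENCODE vM21. Python 3.11.15, scipy 1.17.1 and edgeR 4.0.16 (TMM scaling only) were used, and the ratio step was tested on simulated data. Alternatives were the filters, gates, scaling, depth and the definition of Dach1 status.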

Additional observations from a re-analysis of the deposited data

Results flagged for a closer look

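The values here stand out because, within 1 subtype, the whole interval lay above 0 while that over all ECs lay below it. The difference between subtypes was not tested, and the intervals cover counting error only. Ubd in metaphyseal ECs had a log2 ratio, Dach1OE over Control, of 0.43 (0.27 to 0.59), against -0.88 over all ECs. Rgs4 in metaphyseal ECs had 0.56 (0.29 to 0.84), against -1.05 over all ECs. Piezo2 was seen in 65.8% and 46.9% and Ramp3 in 61.3% and 37.8% of the metaphyseal cells of Control and Dach1OE. Lamb1, of the same marker list, went the other way, with 62.2% and 81.9%. Ubd in ECs that no subtype gate took had 0.41 (0.13 to 0.69), on 164 and 319 UMIs. By Dach1 status within metaphyseal ECs of Dach1OE, Ubd had 0.74 (0.54 to 0.94) and Rgs4 1.57 (1.23 to 1.92), both higher in Dach1-positive cells.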

How the results depend on the processing

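The counts of genes past 2-fold stayed within 1.5 times of the value given under every alternative run for them. The count in ECs was 6 in place of 7 among cells of 2000 to 5000 UMIs and with equal weights of the EC subtypes, where Rgs4 came to -0.77. By Dach1 status it was 6 in place of 5 with at least 2 Dach1 UMIs, and 4 with status set after thinning to 1000 UMIs, where Adgrg6 came to -0.90. With sinusoids gated by Stab2 alone, 7 in place of 8 genes were at least 2-fold higher in Control, Il13ra2 being at 0.97. No log2 ratio of a single gene changed sign over 368 values, and 63 left the interval of counting error. With equal weights of the EC subtypes the ratios of all 8 genes in ECs lay closer to no difference. Gpm6a came to -1.68 in place of -2.57 and Serpina3f to -1.38 in place of -2.27. The share of ECs with a UMI of any of the genes moved with depth and filters. In Control it was 80.0% at 2000 UMIs per cell, 71.3% with 1000 to 6000 genes per cell and 72.4% under 10% mitochondrial UMIs. In Dach1OE it was 51.2% at 2000 UMIs and 41.8% under 10% mitochondrial UMIs. Comparisons without shared barcodes and within Xist or Y cells by Dach1 status were added after seeing the data. No paired analysis was possible because each group had 1 library with no deposited map from cells to mice, and values within Xist cells and within Y cells are given without a test. C5ar1, with 185 UMIs in Dach1OE ECs, and the type R and Prox1 gates were limited by their counts.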

Other observations

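Serpina3f had a source outside ECs, found after its values had been seen. In stromal-gated cells it stood at 30.9 CPM in Control and 6.10 CPM in Dach1OE, 39.1% and 37.2% of its EC level. Of the 920 UMIs in Control, 896 were in the 3621 cells that also carried Lepr or Adipoq, genes of the marrow stromal cells that line sinusoids. There its level was 68.0 CPM (63.6 to 72.6), against 1.45 CPM (0.926 to 2.15) in the 2898 stromal-gated cells without them. The same cells of Dach1OE, 1874 in number, held 21.9 CPM (18.8 to 25.4), a log2 ratio of -1.63. Serpina3g, a near copy, stood there at 187 CPM in Control and 113 CPM in Dach1OE, and Gpm6a at 14.5 and 2.15 CPM. Lepr and Adipoq were themselves lower in those cells of Dach1OE, at log2 ratios of -0.58 and -0.75, and the part of this in the level of Serpina3f was not tested.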
